A study of Mus musculus with 18 samples.

Results

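Type I interferon stimulated genes were followed in sorted bone marrow progenitors of lupus-prone and control mice. The set was a list of 42 genes that cells switch on when type I interferon binds its receptor, taken by symbol, and all 42 were found among the 19780 genes measured in LSK and among the 18428 measured in common myeloid progenitors (CMPs). LSK are Sca-1+ c-Kit+ bone marrow cells that include stem and early progenitor cells, here sorted as negative for CD11b, Gr-1, Ter119, B220 and CD16/32. NZBW/F1 mice, a cross of the NZB and NZW strains, develop a lupus-like disease without any induction, and C57BL/6 mice served as controls. All mice were female. F1-P were prediseased NZBW/F1 mice of 12 weeks and B6-Y were C57BL/6 mice of the same age. F1-L were NZBW/F1 mice with lupus, defined by proteinuria, and B6-O were C57BL/6 mice, both at 28 to 36 weeks. LSK were profiled in all 4 groups and CMPs in F1-P and F1-L, with 3 samples in each group, and no C57BL/6 CMPs were analysed here. In NZBW/F1 mice disease and age moved together, so their effects cannot be told apart there. The C57BL/6 groups give the age difference without disease, but in another strain.

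Type I interferons signal through a receptor made of Ifnar1 and Ifnar2 and the kinases Jak1 and Tyk2 to a complex that holds Stat2 and Irf9 and binds an interferon-stimulated response element beside its target genes. The targets include RNA and DNA sensors, enzymes that block translation or destroy RNA, membrane proteins that stop virus entry, and factors such as Irf7 and Usp18 that strengthen or damp the response. Raised expression of such genes in blood cells is a well-known feature of human lupus. In haematopoietic stem cells, interferon is known to break quiescence, and the gene of the sorting marker Sca-1, Ly6a, is itself induced by interferon.

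The response element can be read in the promoters of the set. RefSeq promoters (GRCm38.p6, 250 bases before to 50 after the start of a gene) were matched by symbol for 32 of the 42 genes. The core of the element, written here as 2 copies of GAAA with any 2 bases between them and searched on both strands, lay in at least 1 promoter of 15 of these 32 genes (46.9%). Of all 27025 genes in the promoter table, 1079 (3.99%) had a match. These letters are a loose form of the element, matches can overlap each other, and a match is a description of sequence and not of binding. The windows below, 1 for each gene, are shown because these genes recur in the differences described afterwards or, as Isg15, are classic members of the response. Ifit3b, which was too low to be tested, is shown as the copy of Ifit3. Each is a match, in capitals, with its flanks, 5′ to 3′ on the strand of the gene, and a match made of TTTC is the same motif on the opposite strand. The Oas3 window is at chr5:120777715-120777744, that of Oas1g at chr5:120887612-120887641, that of Oas1a at chr5:120907526-120907555 and that of Ifih1 at chr2:62646206-62646233, all on the minus strand. On the same strand were the windows of Isg15 at chr4:156200871-156200900 and Ifitm3 at chr7:141010706-141010735. Ifit1 at chr19:34640794-34640823, Ifit3 at chr19:34583397-34583426 and Ifit3b at chr19:34607793-34607822 lie on the plus strand.
Oas3: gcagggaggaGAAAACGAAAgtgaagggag
Oas1g: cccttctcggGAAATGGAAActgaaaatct
Oas1a: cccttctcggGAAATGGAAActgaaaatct
Ifih1: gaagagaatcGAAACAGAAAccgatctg
Isg15: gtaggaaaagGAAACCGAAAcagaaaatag
Ifitm3: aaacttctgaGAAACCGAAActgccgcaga
Ifit1: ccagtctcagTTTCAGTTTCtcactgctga
Ifit3: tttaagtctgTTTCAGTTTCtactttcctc
Ifit3b: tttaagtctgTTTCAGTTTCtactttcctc
Oas1g and Oas1a have the same window, as do Ifit3 and Ifit3b. These are neighbouring gene copies, and how reads were divided within each pair is uncertain. No match stood in the entries of Irf7, Irf9, Oasl1, Oasl2 or Isg20, which says only that these letters are not in those windows, and no entry was found for Oas2, Mx1, Mx2, Usp18, Rtp4, Zbp1, Dhx58, Parp9, Parp14 or Ifi27l2a. Of the genes without a printed window, Oas2 lies at chr5:120730333-120749853, beside Oas3 and the Oas1 genes, Oasl2 at chr5:114896936-114912234, Mx1 at chr16:97447035-97462907, Zbp1 at chr2:173206612-173218923 and Isg20 at chr7:78913424-78920396 (GRCm38, whole genes).

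Levels are given as CPM, read counts divided by a library size that was scaled by a normalization factor for each sample. LSK samples held 23772252 to 28493747 reads and CMP samples 20001328 to 24761060. In LSK 1 read was worth 0.031 to 0.0584 CPM. Genes near 1 CPM therefore rest on few reads, such as the 46, 24 and 21 reads of Oas1g in F1-P. Both tables listed all 42 genes. In LSK, 41 reached 1 CPM in at least 3 samples of each comparison and were tested, and Ifit3b, at 0.175 to 0.777 CPM, was not. In CMPs 39 were tested, without Ifit3, Ifit3b and Oas1g. Divided by exonic length, the most abundant of the set in B6-Y LSK was Ifitm3, a membrane protein that blocks virus entry, with a mean of 161 CPM per kb. It was followed by Bst2, which tethers budding virus to the cell surface, at 108 CPM per kb and by Lgals3bp, a secreted glycoprotein, at 57.5 CPM per kb. The lowest were Oas1g at 3.42, Ifit3 at 1.90 and Ifit3b at 0.343 CPM per kb.

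The sorted cells were checked against their defining markers. All 10 LSK markers, among them Kit, Cd34, Flt3 and Meis1, were detected in every LSK sample. They were also detected in every CMP sample, so detection alone does not tell the 2 populations apart. Their sums were 1557 to 2946 CPM in LSK and 806 to 1535 CPM in CMPs. The sums of 8 CMP markers, 812 to 2766 CPM in LSK and 2390 to 5919 CPM in CMPs, overlapped. Ly6a was at 35.5 to 113 CPM in C57BL/6 LSK, at 293 to 879 CPM in NZBW/F1 LSK and at 1.14 to 6.70 CPM in CMPs, although the methods of the study list Sca-1 as positive in the CMP gate. RNA of other cells was present too. Immunoglobulin genes held 19.2%, 36.6% and 35.1% of the reads in the 3 F1-P LSK samples and 16.8%, 21.6% and 25.6% in F1-L, against 0.301% to 4.76% in C57BL/6 LSK and at most 0.255% in CMPs. Among the C57BL/6 LSK, replicate 3 of B6-O stood apart from replicates 1 and 2 of its group. Its counts differed from theirs by a chi-square of 216.5 and 252.5 per degree of freedom, against 26.0 between those 2. It also had the highest summed level of mature neutrophil markers in B6-O, 10530 CPM against 1687 and 816. In F1-P, replicate 1 differed from replicates 2 and 3 by 215.9 and 195.5 per degree of freedom, against 64.3 between those 2, and had the lowest immunoglobulin share. The counts of members that were called, did not overlap between groups or passed an unadjusted p are given below with and without these 2 samples where they enter. The last 2 kinds were recounted in this way after the values had been seen. Because these are bulk samples, fewer cells of a type and less RNA per cell cannot be told apart.

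Averaged over the 41 tested genes, log2(CPM + 1) was highest in B6-Y LSK, at 5.41 ± 0.14 (SD, n = 3), and lowest in F1-P LSK, at 4.71 ± 0.07. B6-O at 5.08 ± 0.08 and F1-L at 4.98 ± 0.04 lay between them. The 3 F1-P samples were below all other LSK samples and the 3 B6-Y samples above all others, while the values of B6-O, 4.99 to 5.15, and of F1-L, 4.94 to 5.02, overlapped. In CMPs the 39 genes averaged 4.21 ± 0.34 in F1-P, and F1-L, at 4.59 ± 0.29, overlapped with it. The LSK and CMP tables were normalized separately, so no test was made between them. LSK comparisons that have a group in common share its samples, and their values below are therefore not independent of each other.

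**Figure D1:**
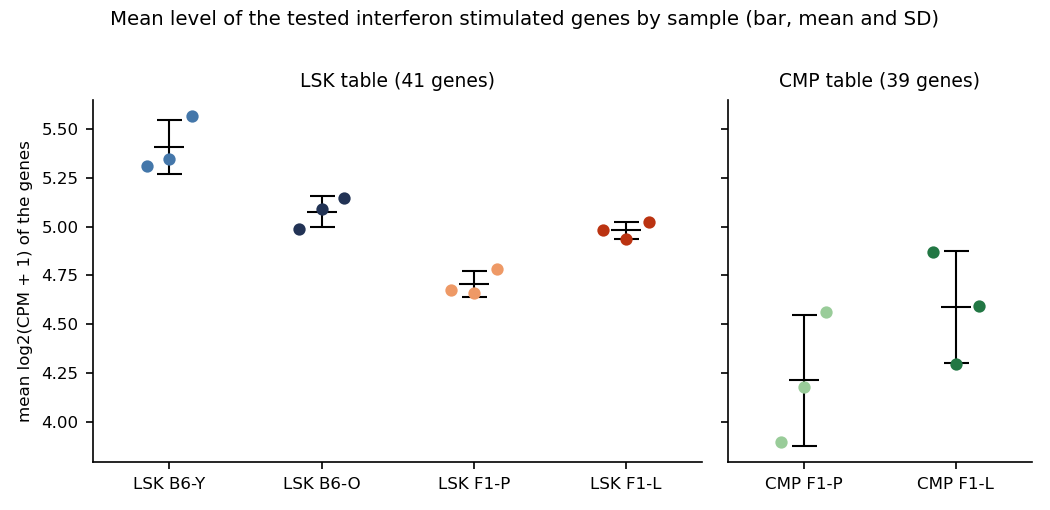
Mean log2(CPM + 1) of the tested interferon stimulated genes in each sample, over 41 genes in LSK (left) and 39 in CMPs (right), with points for samples and bars for the group mean and SD. The F1-P points lie lowest among LSK and the B6-Y points highest, and the CMP groups overlap.

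The first comparison was of prediseased NZBW/F1 with young C57BL/6 LSK, mice of the same age before overt disease. Most interferon stimulated genes were lower in F1-P. A gene was called changed at an adjusted p of at most 0.05 (limma on log2(CPM + 1), Benjamini-Hochberg over all genes tested) and a fold change above 1.5. Of the 41 tested, 20 fell and 2 rose, so 53.7% were called against 16.2% of all 14380 genes tested. Of all genes 6.18% fell and 10% rose. The median log2 fold change of the set was -0.71, against -0.04 over all genes, and 36 of the 41 values were below 0. In 28 of them every F1-P sample was below every B6-Y sample (18.1% of all genes), and in 3 every F1-P sample was above (17.4% of all genes). Without F1-P replicate 2, 14 members were called, all lower (2.45% of all genes were called lower). Without F1-P replicate 1, 24 were called (16% of all genes), and the groups did not overlap in 29 members that were lower (29% of all genes) and 4 that were higher (22% of all genes). At an unadjusted p below 0.05, 30 members were lower and 3 higher with all samples in (15.1% and 16.2% of all genes). Without F1-P replicate 1 these counts were 25 and 4 (16.6% and 15% of all genes).

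The OAS family, mostly enzymes that sense double-stranded RNA and activate the RNA-degrading enzyme RNase L, fell as a whole, with 6 of 6 members called. Oas2 was at 20.6, 9.75 and 9.47 CPM in F1-P and at 57.1, 79.4 and 75.2 CPM in B6-Y, 5.27-fold lower, or -2.40 ± 0.29 (SE) on the log2 scale (limma adjusted p = 0.0014). Oas3, its neighbour on chromosome 5, was at 16.8, 12.8 and 15.2 CPM against 46.7, 51.8 and 55.0 CPM (log2 fold change -1.72 ± 0.15, limma adjusted p = 0.000322). All 3 F1-P samples lay far below the B6-Y samples for both genes. Oas1g, with 1.90, 1.4 and 1.02 CPM in F1-P and 6.20, 7.12 and 10.7 CPM in B6-Y, differed by -1.87 ± 0.24 (limma adjusted p = 0.00188). For Oas1a the values were 14.6, 9.05 and 10.4 CPM against 25.8, 24.8 and 43.1 CPM (-1.37 ± 0.26, limma adjusted p = 0.0103). The 2 genes are neighbouring copies with the same promoter window. How reads were divided between them is uncertain, so their separate values are less certain than their shared direction. Oasl2, a relative that also carries ubiquitin-like domains, was at 20.1, 16.4 and 27.3 CPM against 67.8, 58.2 and 92.5 CPM (-1.73 ± 0.23, limma adjusted p = 0.0022). Oasl1, known as a brake on the translation of Irf7, was at 7.01, 6.54 and 4.18 CPM against 15.8, 17.2 and 20.4 CPM (-1.46 ± 0.22, limma adjusted p = 0.00355). No sample of one strain overlapped the other for any of the 6 genes.

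Other families held both called and uncalled members. Mx1, a GTPase that traps viral nucleoproteins and of which C57BL/6 is known to carry a defective allele, was at 11.7, 9.34 and 11.03 CPM in F1-P and at 24.8, 25.7 and 26.2 CPM in B6-Y (-1.19 ± 0.15, limma adjusted p = 0.0019). Its neighbour on chromosome 16, Mx2, had a log2 fold change of -0.70 and missed the threshold (limma adjusted p = 0.0563). Ifit1, which binds RNA with foreign cap structures, was at 3.13, 3.97 and 4.37 CPM against 8.86, 7.93 and 12.9 CPM (-1.16 ± 0.22, limma adjusted p = 0.0106), without overlap. Ifit3 fell by 1.10 on the log2 scale at about 1 CPM in F1-P, and Ifit2 had a fold change of 1.49, just inside the limit of 1.5. Of the cytosolic sensors, Ifih1, a receptor for long double-stranded RNA, fell by 0.98 and its regulator Dhx58 by 1.03 on the log2 scale. The kinase gene Eif2ak2, which shuts down translation, fell by 0.84. Ddx58 and Adar, an RNA sensor and an RNA editing enzyme, did not pass the test, with log2 fold changes of 0.21 and -0.14.

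Among the regulators of the response, 1 of 3 signalling genes was called. Irf9, the DNA-binding partner of Stat2, fell by 0.64 on the log2 scale (limma adjusted p = 0.0129). Irf7, the factor that amplifies interferon production, was at 29.8, 42.5 and 35.6 CPM in F1-P and at 46.8, 55.8 and 78.2 CPM in B6-Y. The groups did not overlap, but the difference of -0.71 ± 0.22 missed the threshold (limma adjusted p = 0.0587). Stat2 differed by -0.15 (limma adjusted p = 0.524). In the ISG15 system, which attaches a ubiquitin-like protein to newly made proteins, Usp18, which removes ISG15 and also damps receptor signalling, fell from 13.6, 12.5 and 19.9 CPM in B6-Y to 7.42, 5.25 and 7.09 CPM in F1-P (-1.09 ± 0.23, limma adjusted p = 0.0143). Isg15 itself was at 7.13, 10.3 and 9.86 CPM against 9.42, 9.59 and 15.9 CPM. These groups overlapped and the difference of -0.30 ± 0.25 did not pass (limma adjusted p = 0.458).

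Of the remaining effectors, Rtp4, a chaperone for receptors at the cell surface, was at 13.1, 8.29 and 9.28 CPM in F1-P and at 23.9, 23.9 and 39.1 CPM in B6-Y (-1.404 ± 0.25, limma adjusted p = 0.00749). Ifi44, whose values were 21.4, 11.4 and 15.7 CPM against 40.8, 34.6 and 50.4 CPM, fell by 1.35 ± 0.24 (limma adjusted p = 0.00792). Both were lower in every F1-P sample. Ifitm3, Cmpk2, a nucleotide kinase gene, Xaf1, a pro-apoptotic gene, and Parp12, an ADP-ribosyltransferase gene, fell by 0.98, 0.93, 0.73 and 0.92 on the log2 scale. Rsad2, the gene of viperin, was at 6.27, 6.24 and 27.8 CPM in F1-P against 26.9 to 30.4 CPM in B6-Y. Replicate 3 of F1-P reached the level of the controls, and the difference was not called (limma adjusted p = 0.103). That sample also had the highest summed level of erythroid markers, 2902 CPM against at most 591 CPM in the other LSK samples, and whether the values are related was not tested. Without it Rsad2 was among the called members. The members not yet named, Parp9, Parp14, Trim25, Trim30a, Sp100, Ifi27l2a, Ifi35, Bst2, Lgals3bp and Samd9l, were not called, with log2 fold changes from -0.64 for Trim25 to 0.08 for Samd9l.

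**Figure D2:**
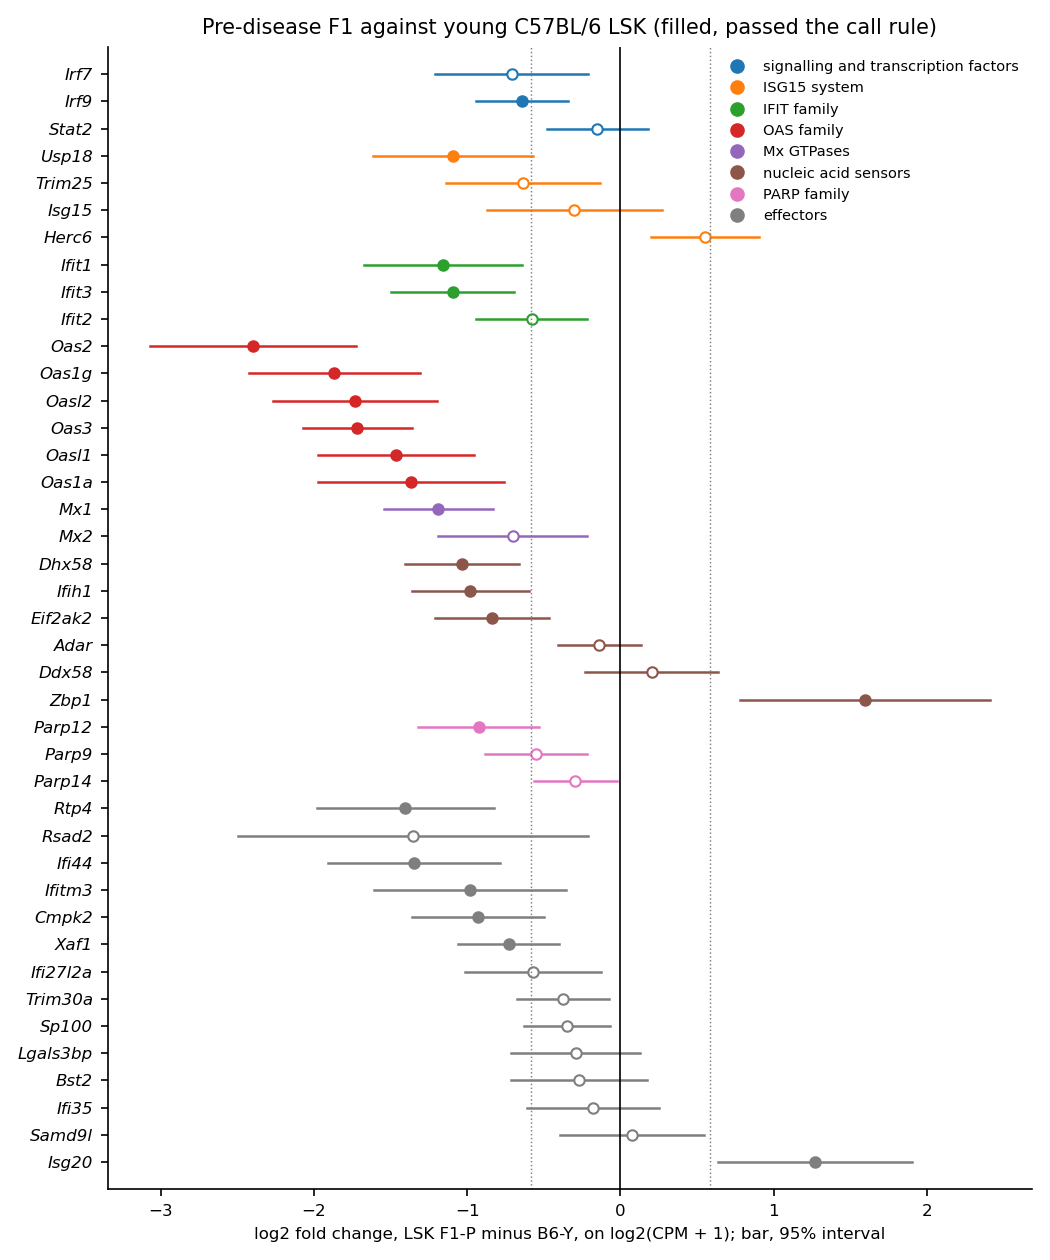
Log2 fold change of the 41 tested genes between F1-P and B6-Y LSK with 95% intervals, ordered and coloured by role, with filled symbols for called genes and dotted lines at a fold change of 1.5. Of the 6 OAS genes, 5 lie farthest to the left, and Zbp1 and Isg20 are the filled symbols on the right.

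Zbp1 and Isg20 rose. Zbp1, a sensor of Z-form nucleic acids that can start necroptosis, was at 27.8, 71.4 and 62.5 CPM in F1-P and at 11.7, 18.1 and 18.8 CPM in B6-Y (1.60 ± 0.35, limma adjusted p = 0.0186). Isg20, an exonuclease that degrades RNA, was at 33.1, 65.7 and 55.2 CPM against 15.5, 20.3 and 24.8 CPM (1.27 ± 0.27, limma adjusted p = 0.0168). For both genes replicate 1 of F1-P was the lowest of its group, as it was for the immunoglobulin share, and in B6-O replicate 3 was the highest in all 3 measures. In F1-L and in B6-Y replicate 1 was the lowest in these measures, but the highest sample was not the same in all of them. This order was not particular to the 2 genes. Irf7, Isg15, Bst2 and Ifi27l2a, which were not called, had the same lowest sample in F1-P and the same highest sample in B6-O. Other members, such as Oas2, did not. Herc6, the main ISG15 ligase of the mouse, was at 44.9, 57.5 and 62.0 CPM in F1-P and at 39.2, 35.9 and 35.1 CPM in B6-Y, and its fold change of 1.47 lay just inside the limit. The calls of Zbp1 and Isg20 were lost without F1-P replicate 2, without F1-P replicate 3 and without B6-Y replicate 1, and that of Zbp1 also without B6-Y replicate 3.

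**Figure D3:**
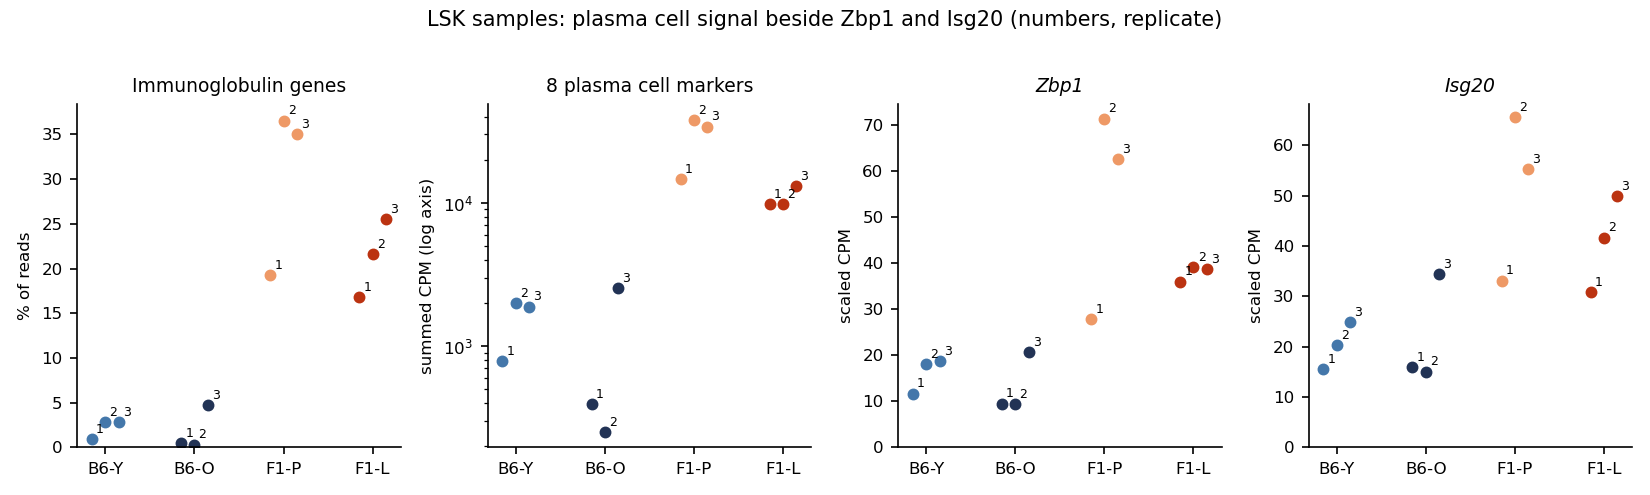
Share of reads on immunoglobulin genes (%), summed CPM of 8 plasma cell markers (log axis), and CPM of Zbp1 and Isg20 in each LSK sample, with numbers for replicates. Replicate 1 of F1-P is the lowest and replicate 3 of B6-O the highest of its group in each of the 4 plots.

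Marker genes of other cells moved with this comparison. The 8 plasma cell markers summed to 14630, 37900 and 33990 CPM in F1-P and to 788, 1987 and 1886 CPM in B6-Y, with Jchain, the joining chain of secreted antibodies, the most abundant in each sample. All 8 rose, with a median log2 fold change of 3.402, and none of them was at 0 in any LSK sample. Of 7 T and NK cell markers 6 rose, and their sums were 194, 249 and 239 CPM against 43.5, 58.4 and 73.9 CPM. Of the 10 LSK markers Ly6a rose, by 3.53 on the log2 scale, and Cd34, Flt3, Hlf and Meis1 fell. The LSK markers had a median of -0.53. Of 8 CMP markers, Cd34, which is in both lists, Cebpa and Gata2 fell. The B cell markers had 3 higher and 3 lower means, with Cd79a and Cd79b called higher. The monocyte and macrophage markers had 2 higher and 5 lower, with a median of -0.36 and Ly6c2 alone called, as higher. Erythroid markers had higher means in 7 of 7 and neutrophil markers lower means in 9 of 10, with medians of 1.12 and -0.73 and none called. The erythroid sums were 105, 87.4 and 2902 CPM in F1-P against 48.9, 230 and 97.3 CPM in B6-Y, and the neutrophil sums 292, 507 and 1249 CPM against 490, 5296 and 473 CPM. Both overlapped, with 1 sample far above the others in each, replicate 3 of F1-P for the first and replicate 2 of B6-Y for the second. Of 7 markers of plasmacytoid dendritic cells, a cell type known for interferon production, 2 rose and 2 fell, and the sums of 423, 522 and 450 CPM in F1-P overlapped with the 408, 438 and 370 CPM of B6-Y. The part of these cells in the levels of the interferon stimulated genes was not tested. Reads were aligned to mm10, the C57BL/6 genome, so differences between the strains and differences in how reads of NZB and NZW alleles map cannot be told apart.

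Other genes of the pathway were called in both directions. Of 50 listed, 28 were tested in this comparison, of which 4 rose and 2 fell. These 21.4% (14.3% higher and 7.14% lower) were near the 16.2% of all genes (10% and 6.18%). Tyk2, the receptor-associated kinase gene, was at 135, 243 and 166 CPM in F1-P against 80.9, 116 and 96.02 CPM in B6-Y (0.86 ± 0.23, limma adjusted p = 0.0406). Socs1, an inhibitor of Jak kinases, was at 17.4, 20.1 and 13.99 CPM against 5.08, 10.8 and 8.91 CPM (1.01 ± 0.27, limma adjusted p = 0.0397). Every F1-P sample was above every B6-Y sample for both genes. Ticam1, the adaptor of Tlr3, rose by 0.70 on the log2 scale, and so did Ifng, the gene of type II interferon, by 1.06 at a low level of 2.92 to 3.75 CPM in F1-P. Irf8, a factor of monocytes and dendritic cells, fell by 0.82 and Tlr7, a sensor of single-stranded RNA, by 0.60. The 4 interferon receptor genes were not called. Of the 21 interferon genes listed, Ifng alone was in the LSK table.

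The second comparison asked what differed between NZBW/F1 mice with lupus and C57BL/6 mice of the same age. Few members differed. Of 41 genes 2 rose and 2 fell, 9.76% against 11.6% of all 14381 genes tested (7.84% higher and 3.75% lower), so the share of members called was near that of all genes. The median log2 fold change was -0.16, against -0.03 over all genes, and 26 values were below 0. Every F1-L sample was below every B6-O sample in 11 genes (20% of all genes) and above in 3 (17.5% of all genes). At an unadjusted p below 0.05, 9 members were lower and 3 higher (12.7% and 14.8% of all genes). The likelihood ratio test of edgeR called 4 lower and 2 higher (5.04% and 9.6% of all genes), and DESeq2 5 lower and 2 higher (6.07% and 10.1%). Zbp1 was at 35.97, 39.2 and 38.6 CPM in F1-L and at 9.49, 9.41 and 20.7 CPM in B6-O (1.54 ± 0.30, limma adjusted p = 0.0175). Herc6 was at 56.4, 53.9 and 58.8 CPM against 35.4, 34.5 and 23.1 CPM (0.87 ± 0.19, limma adjusted p = 0.0263). Both were higher in each F1-L sample. Rtp4 fell, with 12.6, 13.2 and 15.6 CPM in F1-L and 21.1, 26.7 and 25.2 CPM in B6-O (-0.78 ± 0.17, limma adjusted p = 0.0288). Oas1g also fell, with 3.08, 3.22 and 3.73 CPM against 6.44, 5.56 and 7.32 CPM (-0.77 ± 0.18, limma adjusted p = 0.0383). Oasl1 came next in order of p, at 7.01, 6.16 and 7.59 CPM against 9.77, 12.8 and 13.2 CPM (-0.70 ± 0.19, limma adjusted p = 0.0611), and was not called. The call of Oas1g was lost in edgeR's quasi-likelihood test, which called the other 3 (adjusted p = 0.0504 for Oas1g), and in limma without the filter on low values (adjusted p = 0.0634).

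All 6 OAS genes had a lower mean in F1-L than in B6-O, with a median log2 fold change of -0.69. For Oas3 the difference was -0.11 ± 0.25, and its values of 40.7, 28.7 and 26.5 CPM in F1-L overlapped with 34.0, 45.5 and 25.4 CPM in B6-O. Irf7, at 36.4, 31.97 and 40.1 CPM in F1-L and 30.0, 29.4 and 51.0 CPM in B6-O, Isg15, at 5.97, 7.79 and 9.48 CPM against 6.94, 8.50 and 18.2 CPM, and Usp18, at 9.85, 8.83 and 8.76 CPM against 9.02, 9.60 and 12.8 CPM, overlapped as well. For Irf7 the 95% interval of the log2 fold change ran from -0.53 to 0.57. Replicate 3 of B6-O had the highest value of its group in all 3 genes. Without that sample 7 members were called, 3 higher and 4 lower (16.2% of all genes, 11.2% higher and 4.96% lower), and 16 members were lower without overlap (30.2% of all genes) and 8 higher (26.7% of all genes). At an unadjusted p below 0.05, 13 members were then lower and 5 higher (17.1% and 19.2% of all genes). Leaving out any other single sample left 0 members called, where 3.23% to 5.7% of all genes were called. Plasma cell markers were again higher, with 7 of 8 called and sums of 9742, 9842 and 13040 CPM in F1-L against 396, 253 and 2529 CPM in B6-O, and of the T and NK cell markers 4 of 7 rose. The monocyte and macrophage genes C1qa, Ccr2 and Ly6c2 rose, with sums over 8 such markers of 440, 381 and 526 CPM against 65.7, 50.6 and 206 CPM. B cell markers had higher means in 6 of 6, with Cd79a called, and neutrophil markers in 10 of 10, with a median of 1.15 and none called. Erythroid markers had 5 higher and 2 lower means, with a median of 0.16 and Car1 alone called, as higher. Plasmacytoid dendritic cell markers had higher means in 5 of the 6 tested, with a median of 0.64, overlapping sums of 376, 246 and 387 CPM against 223, 215 and 270 CPM, and none called. Of the 10 LSK markers Ly6a rose, by 2.68 on the log2 scale, and Cd34, Hlf and Meis1 fell. The part of these markers in the values of the set was not tested. Of the 28 pathway genes tested, Tyk2 and Socs1 rose, by 0.60 and 1.07 on the log2 scale, and no others were called.

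The third comparison followed NZBW/F1 LSK from the prediseased stage to lupus. Most of the set had higher values in F1-L, but no member was called in the main test: 0 of 41 were called in limma, against 0.0279% of all 14332 genes. At an unadjusted p below 0.05 there were 11 members, all higher (26.8%, against 8.58% of all genes that were higher at that level). edgeR's quasi-likelihood test also called 0, its likelihood ratio test 5 and DESeq2 6, all of them higher (0.0209%, 3.45% and 3.83% of all genes, the last 2 in that direction). Of these, the likelihood ratio test rests on the edgeR fit that the study names for its own differential expression. Leaving out any single sample gave 0 calls among the members, where 0% to 0.176% of all genes were called. The median log2 fold change was 0.26, against -0.01 over all genes, with 31 of 41 values above 0. In 12 genes each F1-L sample was above each F1-P sample (10.4% of all genes), and in none was each below (7.29% of all genes). Without F1-P replicate 1, 16 members lay above and 4 below without overlap (17.2% and 17.3% of all genes), and at an unadjusted p below 0.05 there were 12 higher and 3 lower (7.4% and 8.1% of all genes).

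The members with the lowest p were Oas3, Oasl2, Oas1g, Ifih1 and Ifitm3, the same that the likelihood ratio test called. Oas3 was at 40.7, 28.7 and 26.5 CPM in F1-L and 16.8, 12.8 and 15.2 CPM in F1-P (1.03 ± 0.19, limma adjusted p = 0.172). Oasl2 was at 38.0, 46.7 and 43.9 CPM against 20.1, 16.4 and 27.3 CPM (1.00 ± 0.19, limma adjusted p = 0.172). The groups did not overlap for either. For Oas1g, at 3.08, 3.22 and 3.73 CPM against 1.90, 1.4 and 1.02 CPM, the difference was 0.85 ± 0.18 (limma adjusted p = 0.175). For Ifih1, at 29.8, 40.8 and 34.0 CPM against 16.8, 17.8 and 24 CPM, it was 0.81 ± 0.18 (limma adjusted p = 0.175). For Ifitm3, at 71.5, 106 and 121 CPM against 63.4, 40.5 and 56.1 CPM, it was 0.88 ± 0.24 (limma adjusted p = 0.209). These 3 genes too were higher in each F1-L sample than in any F1-P sample. The Mx genes gave log2 fold changes of -0.05 and -0.04, and Irf7 and Isg15 gave 0.01 ± 0.16 and -0.21 ± 0.21, with overlapping groups. Usp18, at 9.85, 8.83 and 8.76 CPM against 7.42, 5.25 and 7.09 CPM, did not overlap (0.43 ± 0.17, limma adjusted p = 0.345). The 95% interval for Irf7 ran from -0.35 to 0.38.

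Neutrophil markers moved alongside. All 10 had higher means in F1-L LSK, with a median log2 fold change of 3.00 and sums of 11990, 4787 and 1934 CPM against 292, 507 and 1249 CPM, led by S100a9 in each sample, although none was called. Plasma cell markers had lower means in F1-L, 8 of 8 with a median of -0.84, and B cell markers likewise, 6 of 6 with a median of -0.99. Means were higher for 8 of 8 CMP markers, with a median of 1.15, for 5 of 7 monocyte and macrophage markers, with a median of 1.14, and for 8 of 10 LSK markers, with a median of 0.44. Plasmacytoid dendritic cell markers had lower means in 4 of the 6 tested, with a median of -0.48 and sums of 376, 246 and 387 CPM in F1-L, all below the 423, 522 and 450 CPM of F1-P. None of these markers was called. The part of these shifts in the levels of interferon stimulated genes was not tested. None of the 28 pathway genes tested was called in limma, and 3 (10.7%) had an unadjusted p below 0.05, against 12.8% of all genes in either direction, a share near that of all genes.

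**Figure D4:**
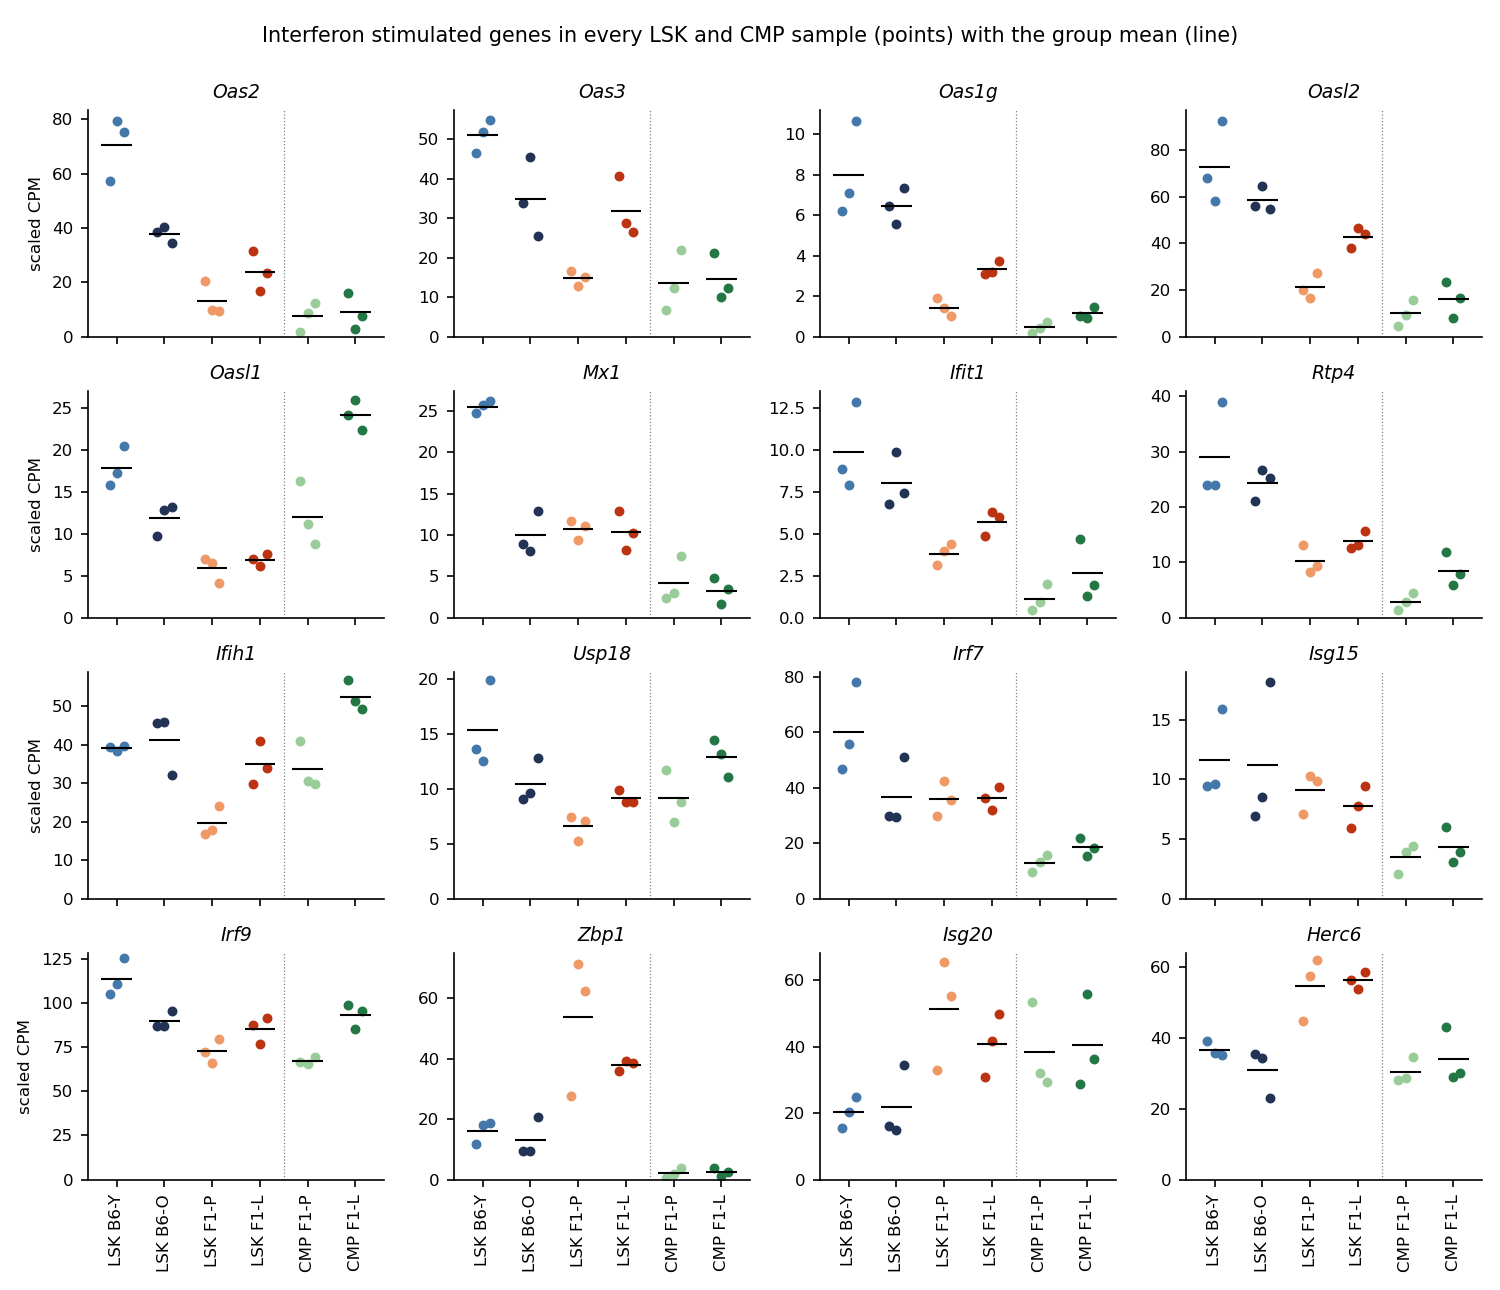
CPM of 16 interferon stimulated genes in each sample of the 4 LSK and 2 CMP groups, with points for samples and a line for the group mean. The OAS genes are highest in B6-Y and lowest in F1-P among LSK, while Zbp1, Isg20 and Herc6 have higher means in NZBW/F1 than in C57BL/6 LSK.

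The fourth comparison, of older with young C57BL/6 LSK, gives the age difference without disease. Here most values were lower in the older mice, again without a call: 0 of 41 passed in limma, as did 0% of all 14005 genes. At an unadjusted p below 0.05 there were 10 members, all lower (3.37% of all genes were lower at that level). The quasi-likelihood test called 0 (0% of all genes), and the likelihood ratio test and DESeq2 each called 2, Mx1 and Oas2, as lower (0.364% and 0.7% of all genes). The median log2 fold change was -0.31, against 0.02 over all genes, 35 of 41 values were below 0, and in 15 genes each B6-O sample was below each B6-Y sample (5.57% of all genes). Mx1 was at 8.93, 8.02 and 12.9 CPM in B6-O and 24.8, 25.7 and 26.2 CPM in B6-Y (-1.30 ± 0.21, limma adjusted p = 0.163). Oas2 was at 38.5, 40.2 and 34.4 CPM against 57.1, 79.4 and 75.2 CPM (-0.88 ± 0.17, limma adjusted p = 0.251). Every older sample was below every young one for both genes. Mx2, at 7.31, 6.44 and 10.5 CPM against 15.4, 13.4 and 14.5 CPM, differed by -0.79 ± 0.22 (limma adjusted p = 0.419). Stat2, the transactivating subunit of the interferon-activated complex, was at 62.7, 63.7 and 66.2 CPM against 80.0, 96.9 and 78.0 CPM (-0.39 ± 0.14, limma adjusted p = 0.616). Oasl1, at 9.77, 12.8 and 13.2 CPM against 15.8, 17.2 and 20.4 CPM, differed by -0.55 ± 0.20 (limma adjusted p = 0.618). In these 3 genes too no older sample reached a young one. Usp18, at 9.02, 9.60 and 12.8 CPM against 13.6, 12.5 and 19.9 CPM, overlapped between the ages. So did Irf7 and Isg15, with log2 fold changes of -0.71 ± 0.27 (limma adjusted p = 0.665) and -0.12 ± 0.37 (limma adjusted p = 0.937). Without B6-O replicate 3, Mx1 alone was called, as lower (0.255% of all genes). In that setting 24 members lay below without overlap (13.7% of all genes) and 1 above (15% of all genes), and 13 were lower at an unadjusted p below 0.05 (6.35% of all genes). Plasmacytoid dendritic cell markers had lower means in B6-O, 6 of the 6 tested, with sums of 223, 215 and 270 CPM against 408, 438 and 370 CPM, and B cell markers likewise, 6 of 6 with a median of -2.22, while 10 of 10 neutrophil markers had higher means. Plasma cell markers were lower in mean in 8 of 8, with a median of -0.88, and monocyte and macrophage markers in 7 of 7, with a median of -0.52. Erythroid markers were higher in mean in 5 of 7, with a median of 1.145, and LSK markers in 8 of 10, with a median of 0.34. None of the markers was called. Their part was not tested, and none of the 27 pathway genes tested was called.

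Set side by side, the old-minus-young differences pointed up for most members in NZBW/F1 and down for most in C57BL/6. The difference between the strains in this step was tested as an interaction over all 12 LSK samples. It was positive for 37 of 41 members, with a median of 0.62 against -0.00 over all genes, but 0 members and 0% of the 15084 genes tested were called in limma. At an unadjusted p below 0.05 there were 18 members, all positive (2.86% of all genes were positive at that level). Without F1-P replicate 1 there were again 18 and without B6-O replicate 3 there were 20, all positive (2.64% and 4.33% of all genes). The quasi-likelihood test called 0 (0% of all genes), the likelihood ratio test 1, Oas3, and DESeq2 4, Mx1, Oas2, Oas3 and Oasl2, all positive (0.0597% and 0.179% of all genes). The 5 members with the lowest p were Oas3 with an interaction of 1.61 ± 0.30 (limma adjusted p = 0.533), Oasl2 with 1.29 ± 0.28 (0.609), Mx1 with 1.25 ± 0.28 (0.678), Oas2 with 1.72 ± 0.40 (0.716) and Oas1g with 1.09 ± 0.30 (0.976). For Irf7, Usp18 and Isg15 it was 0.73 ± 0.34, 0.93 ± 0.29 and -0.09 ± 0.46. The mean of Mx1 was 25.5 CPM in B6-Y and 9.96 CPM in B6-O, and it was 10.7 CPM in F1-P and 10.4 CPM in F1-L, so its value came from the C57BL/6 groups. For Oas3 the means were 51.1 CPM in B6-Y, 35.0 CPM in B6-O, 14.9 CPM in F1-P and 31.96 CPM in F1-L, with a difference of opposite sign in each strain. Neutrophil markers also had a positive interaction in 10 of 10 genes, with a median of 1.81. The median was 1.72 for monocyte and macrophage markers, 0.88 for CMP markers and 0.84 for B cell markers, and it was -1.04 for erythroid markers, of which 4 of 7 were negative, and -0.89 for the 3 stromal markers tested. For the other lists it lay between -0.21 and 0.29. No marker was called, and their part was not tested.

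**Figure D5:**
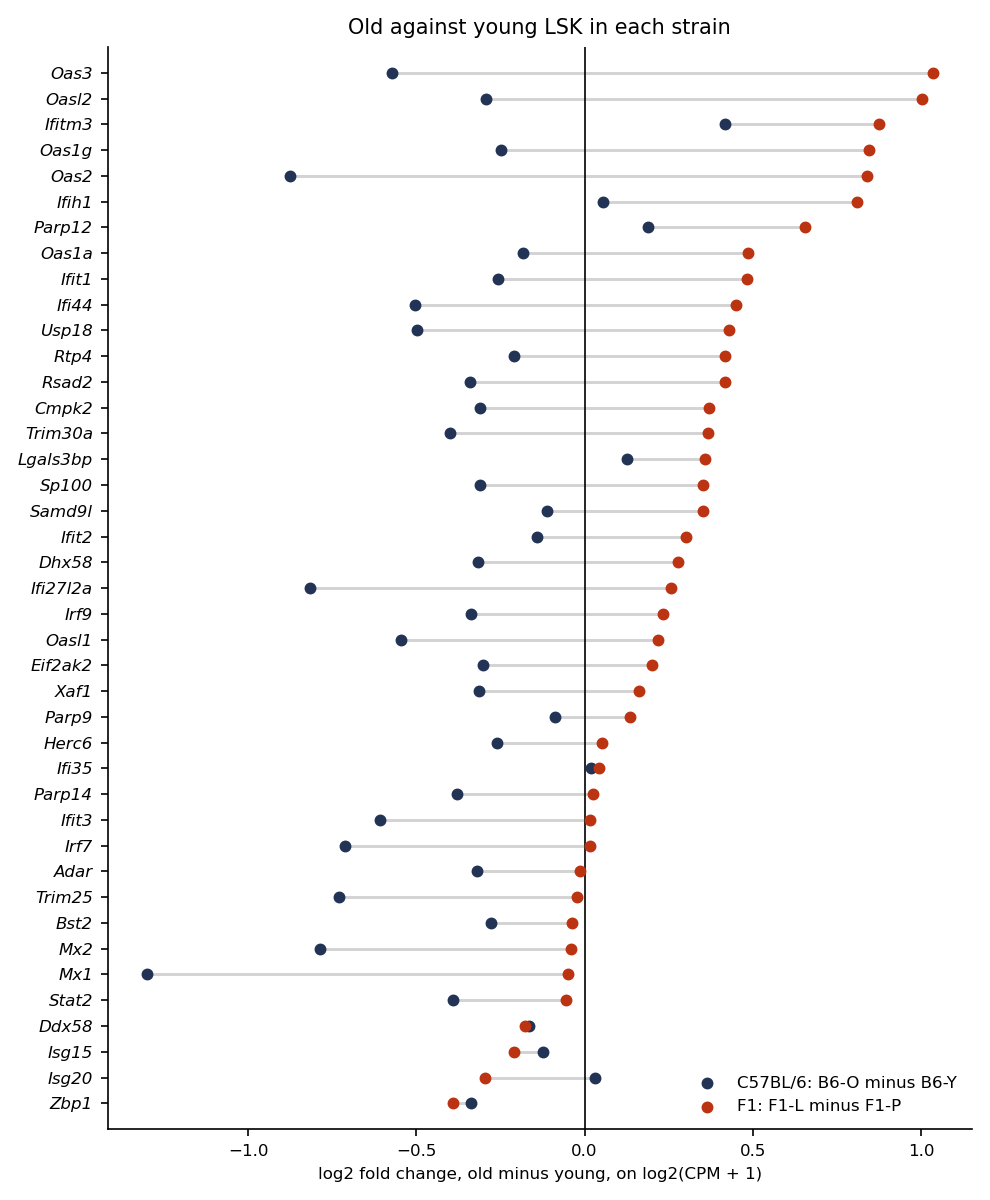
Log2 fold change from young to older mice in LSK for each of the 41 genes, in NZBW/F1 (F1-L minus F1-P, red) and C57BL/6 (B6-O minus B6-Y, dark blue), joined by a line for each gene and sorted by the NZBW/F1 value. The red points lie right of 0 for 31 genes and the blue points left of 0 for 35.

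In CMPs, the progenitors of granulocytes, monocytes, megakaryocytes and erythroid cells, most values were likewise higher in F1-L than in F1-P, without reaching the threshold. In limma 0 of 39 genes were called, against 0.00774% of all 12926 genes tested. At an unadjusted p below 0.05 there were 13 members, all higher (4.55% of all genes were higher at that level). The quasi-likelihood test called 0 (0.00774% of all genes), and the likelihood ratio test and DESeq2 each called 3, Ifih1, Lgals3bp and Oasl1, as higher (0.348% and 0.464% of all genes). The median log2 fold change was 0.40, against 0.04 over all genes, and 34 of 39 values were above 0. In 11 genes each F1-L sample was above each F1-P sample (9.45% of all genes). Irf9 was at 99.02, 85.4 and 95.3 CPM in F1-L and 66.8, 65.8 and 69.6 CPM in F1-P (0.46 ± 0.09, limma adjusted p = 0.352). Lgals3bp was at 254, 259 and 259 CPM against 189, 144 and 130 CPM (0.75 ± 0.14, limma adjusted p = 0.352). Each F1-L sample was above each F1-P sample for both genes. Ifit2, at 35.2, 37.5 and 33.1 CPM against 26.9, 21.4 and 23.1 CPM, differed by 0.55 ± 0.12 (limma adjusted p = 0.353). Oasl1 was at 24.1, 25.9 and 22.3 CPM against 16.2, 11.2 and 8.73 CPM (0.98 ± 0.22, limma adjusted p = 0.353). Ifih1 was at 56.8, 51.4 and 49.4 CPM against 41.0, 30.6 and 29.8 CPM (0.63 ± 0.15, limma adjusted p = 0.353). These 3 genes did not overlap either. Rtp4 had the highest fold change of the set, with 11.8, 5.88 and 7.81 CPM against 1.35, 2.87 and 4.47 CPM (1.32 ± 0.37, limma adjusted p = 0.398). Without F1-P replicate 1, 5 members were called, all higher (0.297% of all genes were called higher and 3.1% lower).

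Of the OAS genes in CMPs, 5 of the 5 tested had log2 fold changes above 0, with a median of 0.66. Oas1g, too low to be tested, was at 1.05, 0.929 and 1.49 CPM in F1-L and at 0.192, 0.441 and 0.744 CPM in F1-P. Oas3 and Oas2 varied widely within the CMP groups. Oas3 was at 21.3, 10.2 and 12.4 CPM in F1-L and 6.82, 12.3 and 22.1 CPM in F1-P, and Oas2 at 16.2, 2.89 and 7.76 CPM against 1.92, 8.61 and 12.5 CPM. Neither separated the groups. Irf7, at 21.9, 15.3 and 18.1 CPM against 9.51, 13.4 and 15.6 CPM, Isg15, at 6.05, 3.05 and 3.93 CPM against 2.07, 3.88 and 4.43 CPM, and Usp18, at 14.5, 13.1 and 11.1 CPM against 11.7, 6.97 and 8.81 CPM, gave log2 fold changes of 0.50 ± 0.22, 0.26 ± 0.30 and 0.47 ± 0.21. All 3 overlapped between the groups. Zbp1 lay at 1.29 to 4.001 CPM in F1-L CMPs and at 0.576 to 3.84 CPM in F1-P, and Isg20 at 28.9, 56.0 and 36.3 CPM against 53.4, 32.1 and 29.5 CPM (0.07 ± 0.31, limma adjusted p = 0.946). Plasma cell markers summed to no more than 309 CPM in any CMP sample, against at least 9742 CPM in NZBW/F1 LSK. The part of plasma cell RNA in the levels of either gene was not tested. Rsad2 was at 27.6 CPM in F1-P replicate 3 and at 3.94 to 10.1 CPM in the other 5 CMP samples. Neutrophil markers had lower means in F1-L CMPs in 10 of 10 genes, with overlapping sums of 84.3, 63.4 and 423 CPM against 304, 6260 and 8196 CPM, and B cell markers in 6 of 6, with a median log2 fold change of -2.65. Monocyte and macrophage markers had lower means in 7 of 7, with a median of -1.19, plasma cell markers in 6 of the 6 tested, with a median of -1.15, plasmacytoid dendritic cell markers in 5 of the 5 tested, with a median of -1.45, and erythroid markers in 5 of 7, with a median of -2.36. None of these was called, and among all marker lists Col1a1, a stromal gene, alone was called, as lower. The F1-P samples with the high neutrophil sums were replicates 2 and 3, which are the F1-P samples left once replicate 1 is removed. The part of these markers was not tested. None of the 26 pathway genes tested was called. Of the 21 interferon genes listed, the CMP table held Ifnb1 and Ifng, which had at most 0.574 and 0.313 CPM.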

How the data were processed

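LSK and CMPs were profiled by RNA sequencing in 18 samples, grouped by their labels. The labels number the samples of a group but do not say that they came from separate animals. The study states n = 4 per replicate for its CMP data, which may mean that each CMP sample was a pool of mice, and the number of mice behind an LSK sample is not given in the sources used here. So p-values measure the spread between these samples, which may be technical. Per the study's methods and submitters' processing notes, reads were aligned with STAR 2.6 to mm10, counted with HTSeq and processed with edgeR. For differential expression the study names edgeR's glmFit, the fit on which the likelihood ratio test here was run. The authors deposited CPM of a scaled library size, here treated as a signal comparable within each table. All values (100%) were whole multiples of 1 read within a tolerance of 0.01, and whole reads were recovered for the count tests. Counting by strand is not given in the sources used here. Identifiers were matched to GENCODE M21 (GRCm38) for 19770 and 18421 genes.

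Tests were limited to genes that reached 1 CPM in 3 or more of the samples compared, and were made on log2(CPM + 1), which understates changes of low genes, with limma 3.58.1 (lmFit, eBayes with a trend) in R 4.3.3. The groups of each comparison alone entered its fit, and the 4 LSK groups entered the interaction. Alternatives were a pseudocount of 0.1 or 0.5, no filter, a mean CPM of at least 5, 2 other scalings, a replicate block, robust eBayes, edgeR 4.0.16 (quasi-likelihood and likelihood ratio), DESeq2 1.42.0, all 12 LSK in 1 fit, and leaving out each replicate. Tests were tried on simulated data. The members and all lists were chosen with earlier results of these data known. By rule, full statistics are given for up to 10 called members in each direction and, with fewer than 5 called, for the 5 with the lowest p, with values in each sample for these and for Irf7, Isg15 and Usp18. Called pathway genes are named.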

Additional observations from a re-analysis of the deposited data

Results flagged for a closer look

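In 4 genes every older LSK sample was above every young one in NZBW/F1 and below every young one in C57BL/6, so the direction of the step from young to older mice was opposite in the 2 strains. Of the 13468 genes tested in both steps, 19 (0.141%) had this pattern, against 9.76% of the members. Recounted after the values had been seen, it was 5 members (12.2%, against 0.306% of all genes) without F1-P replicate 1, 6 (14.6%, against 0.571%) without B6-O replicate 3 and 7 (17.1%, against 1.02%) without both, and the 4 genes were among them each time. The difference between the strains was 1.61 on the log2 scale for Oas3, 0.59 for Dhx58, 0.66 for Sp100 and 0.48 for Xaf1. The interaction did not pass in limma for any of them, with adjusted p of 0.533 for Oas3 and 0.976 for the other three. Dhx58 was at 23.1, 27.6 and 26.3 CPM in F1-L and at 22.4, 20.6 and 19.9 CPM in F1-P, and at 32.7, 37.4 and 35.3 CPM in B6-O and 39.4, 40.2 and 53.5 CPM in B6-Y. Sp100, a nuclear body component, was at 193, 130 and 142 CPM in F1-L and 113 to 125 CPM in F1-P, against 117 to 130 CPM in B6-O and 143 to 168 CPM in B6-Y. Xaf1 was at 20.2 to 22.2 CPM in F1-L and 18.6 to 19.1 CPM in F1-P, against 24.3 to 26.9 CPM in B6-O and 28.5 to 35.3 CPM in B6-Y.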

How the results depend on the processing

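In F1-P against B6-Y the number of members called was 20 to 27 with all samples in, where 12.6% to 19.7% of all genes were called (14% at the lowest count, with a mean CPM of at least 5, and 19.7% at the highest, in DESeq2), and the 22 of the main test were all called again in each setting but the mean CPM of at least 5, where 2 were no longer tested. Over single samples left out it ran from 14 to 24 (6.69% to 16% of all genes). In F1-L against B6-O, 4 were called (11.6% of all genes), 7 with DESeq2 (16.2%), and 3 with the quasi-likelihood test (10.1%), with no filter (9.03%) and with a mean CPM of at least 5 (8.62%), each without Oas1g, which the last did not test. Over single samples left out it was 0 to 7 (3.23% to 16.2% of all genes). In F1-L against F1-P LSK, where limma called 0, the likelihood ratio test called 5 and DESeq2 6 (4.6% and 5.16% of all genes), and the median log2 fold change ran from 0.192 to 0.324 over samples left out. In B6-O against B6-Y the likelihood ratio test and DESeq2 called 2, as lower (0.364% and 0.7% of all genes were lower) and the fit of all 12 LSK 1 (0.107%). Over single samples left out 0 to 1 members were called there (0% to 0.35% of all genes). In CMPs the likelihood ratio test and DESeq2 called 3 (2.46% and 2.71% of all genes) and the quasi-likelihood test 0 (0.00774%). Over single samples left out the number of members called in CMPs was 0 to 5 (0% to 3.4% of all genes). For the interaction the likelihood ratio test called 1 and DESeq2 4 (0.0663% and 0.199% of all genes). Its median ran from 0.505 to 0.67 over samples left out. Why the tests differ was not tested. Of the members chosen by rule for full statistics, none changed direction under any alternative run for it. Other genes with a printed SE, such as Isg20 in CMPs, were not followed in this way.

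The labels do not say whether the replicate numbers pair the samples. Same-numbered samples correlated between -0.454 and 0.622 in their deviations, no comparison had all 3 above 0.1, and not every sample correlated best with its own number. With 3 samples in each group, these correlations cannot decide whether samples were paired. With a replicate block, Zbp1 alone (1 member) was called in F1-L against B6-O (9.6% of all genes), where Herc6, Rtp4 and Oas1g had adjusted p of 0.0504, 0.0621 and 0.0869 in limma, and 25 in F1-P against B6-Y (19.4% of all genes), and the other comparisons stayed at 0, as did all genes there.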
